A study of Mus musculus with 6 samples.

Results

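Mitochondrial fatty acid oxidation and the tricarboxylic acid (TCA) cycle were followed through 43 genes chosen by name, out of 11955 rows in the expression table. The 43 cover fatty acid uptake and activation, the carnitine shuttle, the beta-oxidation enzymes, the electron transfer flavoproteins, pyruvate dehydrogenase, the TCA cycle, the mitochondrial carriers of nucleotides and phosphate, and the malate-aspartate shuttle. Each of the 43 had 1 row, and each passed the filter on low values. RNA was sequenced from 3 mouse samples with the genotype label Eldr cKI and 3 with the genotype label control, all labelled as chondrocytes, the cells of cartilage. By its title the study concerns Eldr, a long noncoding RNA, in chondrocyte senescence. The meaning of cKI, the cells in which the allele acts, and the strain, sex and age of the mice are not given in the sources used here. Eldr itself is not analysed here, so the genotype labels were not checked against it. Nothing in the labels says that replicates came from separate animals or cultures, so p-values measure only the spread between these samples, which may be technical.

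Fatty acids enter a cell through transporters such as Cd36, are bound by fatty acid binding proteins and are activated to acyl-CoA. The carnitine shuttle carries the acyl group into the mitochondrion, where beta-oxidation shortens it to acetyl-CoA and passes electrons to the electron transfer flavoproteins and NAD. Acetyl-CoA from fat or from pyruvate dehydrogenase then enters the TCA cycle. Heart muscle relies heavily on this route and has its own isoforms of several steps, liver oxidises fat mainly during fasting, and cartilage, which is poor in oxygen, is known mostly for glycolysis.

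Values are FPKM, fragments per kilobase of transcript scaled to each library's mapped fragments, so levels can be compared between genes. Depth was low, though it could only be estimated roughly from the steps between low values. The estimated number of fragments behind a library ran from 64307 to 239685. By the same estimate, 1 fragment in a transcript of 1 kilobase was worth 4.17 to 15.6 FPKM. Only 25.6% to 42.4% of the low values in a library lay within 0.05 of a whole number of fragments. Some listed values were far lower, such as 0.0711 FPKM for Col11a1 in Eldr cKI replicate 3, so the estimate sets no floor. A value of 0 therefore says only that a gene was listed at 0. Of the 14 chondrocyte markers 7 had a row, and these summed to 1.25 to 12.7 FPKM per library, with Col2a1, the main collagen of cartilage, at 0 in every library but control replicates 1 and 2. The 13 of 14 cardiomyocyte markers with a row summed to 1769.7 to 7379 FPKM, so the values go against the label chondrocytes in all 6 libraries. Several libraries stood apart. In replicate 1 of Eldr cKI, 4 predicted genes held 64.6% of all FPKM, against 4.40% to 16.9% elsewhere. In control replicate 3 hepatocyte markers summed to 8056 FPKM, against 56.3 to 492 FPKM elsewhere. Photoreceptor markers summed to 749.9 and 1013 FPKM in control replicates 1 and 2, and to 0 to 5.51 FPKM in the other 4 libraries. Mitochondrially encoded genes held 8.51% to 68.3% of all FPKM. Where 3 values are given for a group, they are those of replicates 1, 2 and 3.

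The 43 genes, chosen with earlier results of these data known, were among the more abundant in the table. Their median mean FPKM was 19.9, against 2.47 for all rows, and 26 of 43 lay in the top 10% of rows. Of their 258 values 28, or 10.9%, were listed at 0, against 46.8% of all values in the table. In every library 26 of 43 were above 0, or 60.5%, against 12.97% of all rows. Other genes of the pathway, listed apart from the 43, did so less often. Of 64 such genes with a row, 14 were above 0 in every library, and 130 of their 384 values were listed at 0. High levels are thus given for the 43 and not for the pathway as a whole. The top of the list was Fabp3 with a mean of 375 FPKM over the 6 libraries, followed by Slc25a4 at 198, Acadl at 113 and Idh2 at 73.4 FPKM. The bottom was Acads at 1.34, Cpt1b at 1.64, Cpt2 at 2.16 and Dlat at 2.49 FPKM, each listed at 0 in 3 or 4 libraries.

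**Figure D1:**
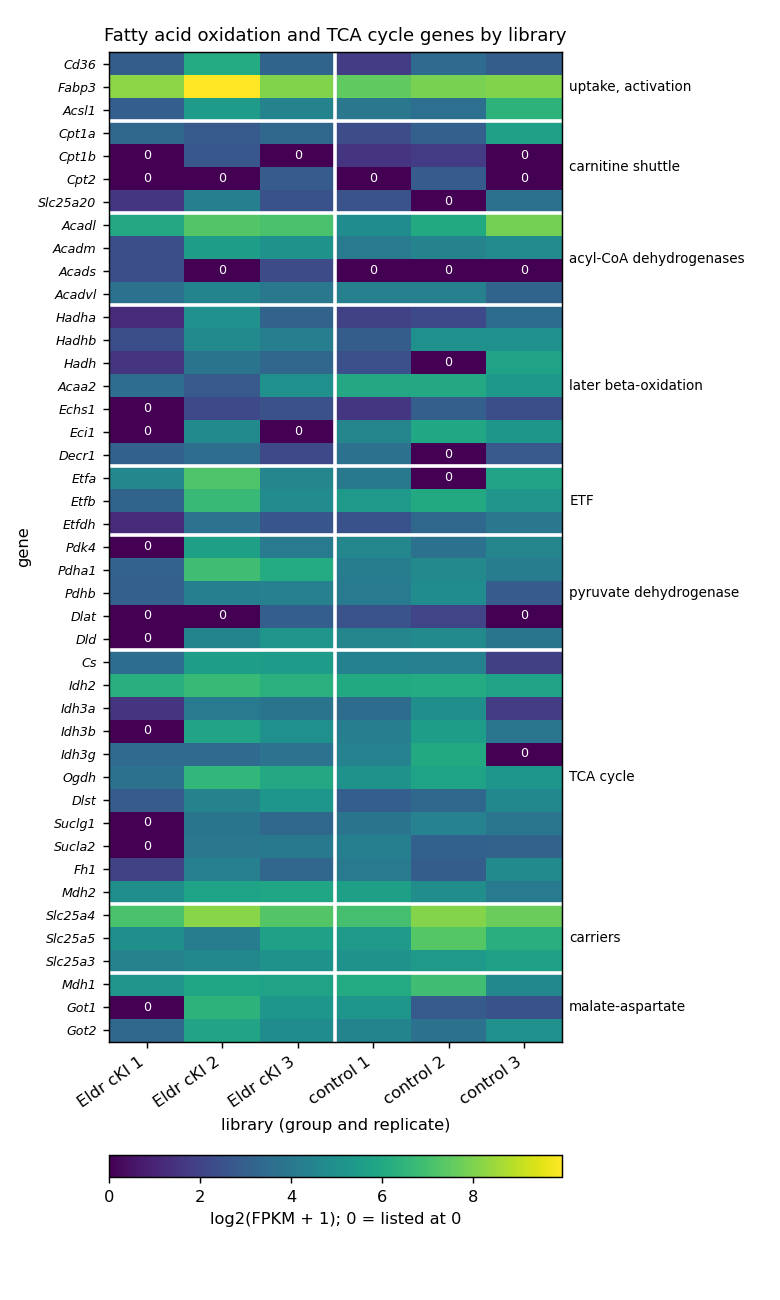
Heat map of log2(FPKM + 1) for the 43 genes (rows, grouped by role) in the 3 Eldr cKI and 3 control libraries (columns), with 0 printed where a gene was listed at 0. Fabp3 and Slc25a4 are bright throughout, and Eldr cKI replicate 1 holds 11 of the 28 zeros.

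Levels differed widely between libraries of the same group. The median of the 43 genes was 6.70, 24.3 and 18.9 FPKM in Eldr cKI, against 17.2, 19.4 and 16.9 FPKM in control. Eldr cKI replicate 2 had the highest value of 18 genes, or 41.9%, against 14.01% of all rows. Eldr cKI replicate 1 had the lowest value, untied, of 20 genes, or 46.5%, against 11.03% of all rows. These last shares are not alike, since a row listed at 0 in more than 1 library has no untied lowest value. Zeros made up 46.8% of all values, against 10.9% of those of the 43. The share over rows above 0 everywhere was not computed. Eldr cKI replicate 2 also had the highest cardiomyocyte marker sum and Eldr cKI replicate 1 the largest share of predicted genes. The part of the cardiomyocyte markers in this order was not tested, and values with the predicted genes left out are given with the comparison of the groups. In the 26 genes above 0 everywhere, the highest library was 1.95 to 27.4 times the lowest, with a median of 8.67, against a median of 9.66 over all rows above 0 everywhere.

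The comparison of Eldr cKI with control asked whether any of these genes differed with the genotype label. None of the 43 passed the threshold in either direction (limma on log2(FPKM + 1), Benjamini-Hochberg adjusted p of 0.05; smallest adjusted p among the 43, 0.959). Over the whole table, 3 of 10772 genes passed, all lower, which is 0.0278%. At an unadjusted p under 0.05 limma gave 1 of the 43, Eci1, lower, against 2.34% of all genes (1.66% lower and 0.678% higher). The authors' deposited table had 1 of the 43 at a p under 0.05, Acaa2, lower, against 1.98% of its rows (1.28% lower and 0.703% higher), with a smallest q among the 43 of 0.704. Fitted values were higher for 19 and lower for 24 of the 43, against 48.9% higher over all genes and 45.7% over genes above 0 in every library. The median log2 fold change was -0.08, against -0.04 over all genes. In bulk RNA, fewer cells of a type and less RNA per cell cannot be told apart.

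The direction of the list moved with single libraries and with the scaling, and the median of all genes moved too. With the 4 predicted genes left out and libraries rescaled, 29 of 43 were higher, with a median of 0.52, and the median of all genes was 0.25. With the mitochondrially encoded genes left out as well, 22 of 43 were higher, with a median of 0.13 against 0.04 for all genes. Without Eldr cKI replicate 1, 33 of 43 were higher (median 0.48), against 58.2% of all genes (median 0.29). Without Eldr cKI replicate 2, 13 of 43 were higher (median -0.40), against 47.5% of all genes (median -0.08). Without both Eldr cKI replicate 1 and control replicate 3, 30 of 43 were higher, with a median of 0.41, against 53.2% of all genes (median 0.12). With array quality weights, 26 of 43 were higher (median 0.16), against a median of -8.9e-05 for all genes. The number of the 43 past the threshold was 0 in each of the 16 alternatives run.

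**Figure D2:**
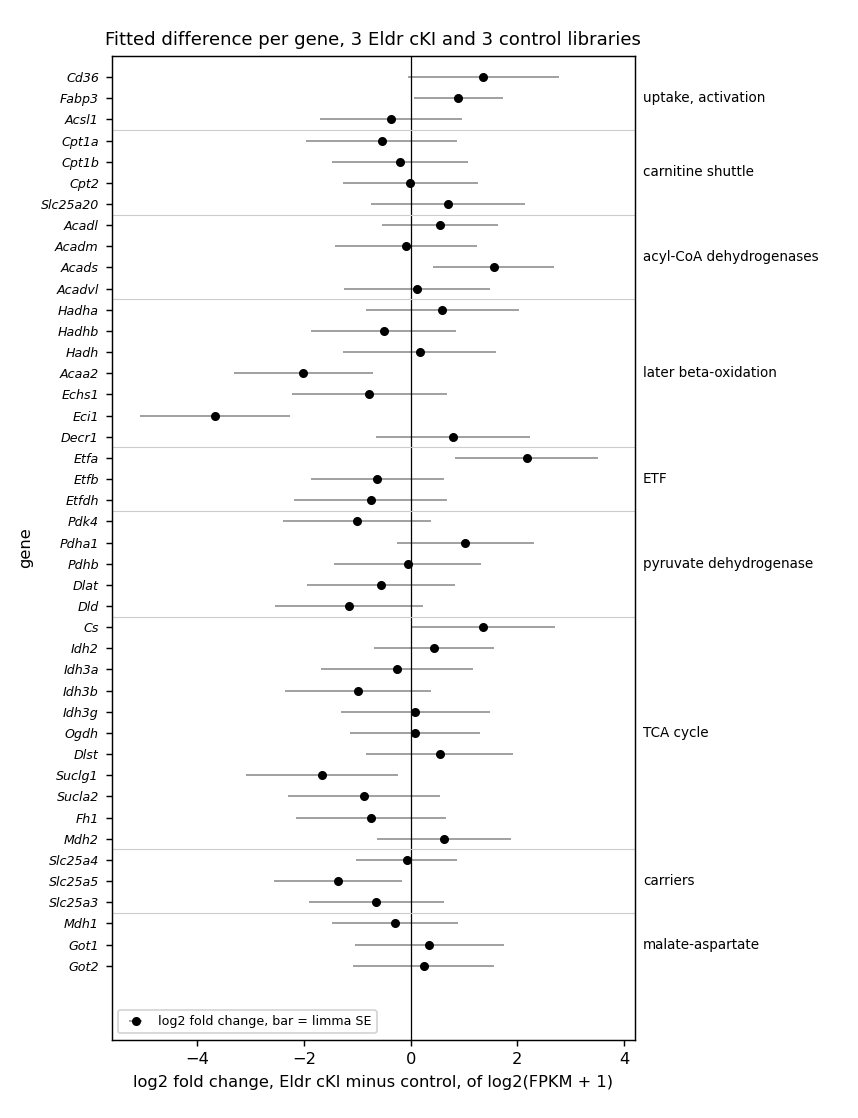
Fitted log2 fold change of log2(FPKM + 1), Eldr cKI minus control, for each of the 43 genes, with bars of 1 limma SE, which comes from the mean-variance trend over all genes. The points run from -3.66 for Eci1 to 2.17 for Etfa, and none passed the threshold.

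Limma's SEs were drawn from the trend of spread with mean level over all genes, with no weight on a gene's own spread, and for 34 of the 43 they were larger than the SE from the gene's own 6 values. Some reads could belong to other genes: 12 of the 43 overlap another protein-coding gene, 10 of them on the opposite strand (Fabp3, Acadvl, Hadha, Echs1, Etfdh, Pdha1, Idh3b, Sucla2, Fh1 and Mdh1), and the sources used here do not give whether counting used strand. Fabp3, Hadhb, Pdhb, Slc25a5 and Got2 have nearly identical processed pseudogenes, and Cpt1b and Etfb share sequence with an overlapping gene. Groups did not overlap for 2 of the 43, Acaa2 (lower) and Idh2 (higher), against 3.78% of all genes in the fit (2.53% lower and 1.25% higher). Among genes above 0 in every library, where both of these lie, the share was 6.02%.

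Summed over the 43 genes, FPKM was 861, 2913 and 1503 FPKM in Eldr cKI, against 1128, 1687 and 1621 FPKM in control. The groups overlapped, with both the lowest and the highest library in Eldr cKI. As a share of FPKM without the predicted and mitochondrially encoded genes, the 43 made up 1.69%, 2.61% and 1.02% in Eldr cKI, against 0.879%, 1.74% and 1.38% in control, where control replicate 1 was lowest and the groups again overlapped. The mean sums were 1759 ± 1049.6 FPKM in Eldr cKI and 1479 ± 306 FPKM in control (SD, n = 3 each; exact permutation test, two-sided p = 0.9). The sum and the 9 sums by role made 10 comparisons, the smallest p that 3 against 3 allows is 0.1, and adjusted over the 10 every p was 1. Without Fabp3 the difference of 279.8 FPKM became -4.60, and without Eldr cKI replicate 2 it became -297. Cardiomyocyte markers summed to 2302, 7379 and 2821 FPKM in Eldr cKI, against 1769.7, 3609.7 and 2636 FPKM in control. The highest library was Eldr cKI replicate 2 in both sums. Hepatocyte markers summed to 56.3, 264 and 232 FPKM in Eldr cKI, against 80.2, 492 and 8056 FPKM in control, with control replicate 3 far above the others. What share of the 43 genes' RNA came from either cell type was not tested.

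**Figure D3:**
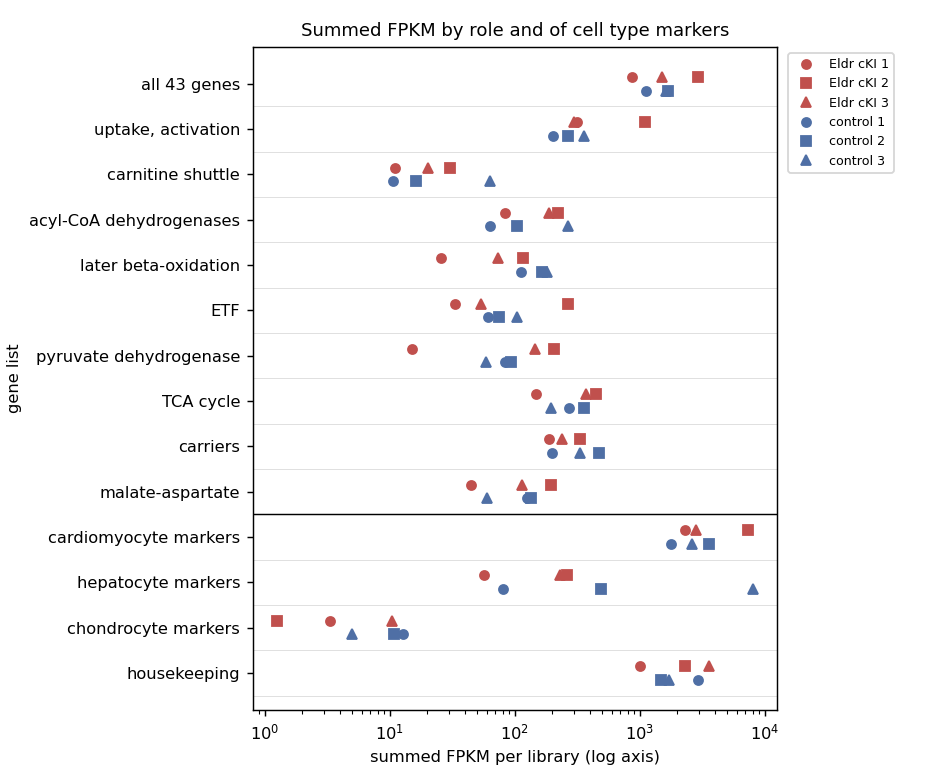
Summed FPKM per library (log axis) for all 43 genes, for each role and for 4 marker lists below the line, with Eldr cKI in red above control in blue and a symbol per replicate number. Cardiomyocyte markers exceed chondrocyte markers in every library, and the Eldr cKI and control symbols overlap in every role.

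Uptake and activation were led by Fabp3, the fatty acid binding protein of heart and skeletal muscle (ENSMUSG00000028773.8, chromosome 4, 130308595 to 130315463, plus strand, on GRCm38 as are the other positions). Fabp3 was at 299, 986 and 269 FPKM in Eldr cKI, against 184, 247 and 269 FPKM in control. Eldr cKI replicate 2 stood far above the other 5 libraries, which lay within 184 to 299 FPKM, and the groups overlapped. The means were 518 ± 406 FPKM in Eldr cKI and 233 ± 44.05 FPKM in control (SD, n = 3 each), with a log2 fold change of 0.90 (SE 0.84, limma adjusted p = 0.959). Cd36, a fatty acid transporter of the cell surface, was at 6.70, 68.4 and 8.29 FPKM in Eldr cKI, against 2.49, 10.1 and 6.56 FPKM in control. Its values overlapped too, again with Eldr cKI replicate 2 on top, and its log2 fold change was 1.36 (SE 1.41). Acsl1, which activates long-chain fatty acids to acyl-CoA, was at 6.87, 43.9 and 20.7 FPKM in Eldr cKI, against 14.3, 11.3 and 85.9 FPKM in control. Here control replicate 3 was highest, and the log2 fold change was -0.36 (SE 1.32). Summed over the 3 genes the level was 569 ± 458 FPKM in Eldr cKI and 277 ± 80.5 FPKM in control (SD, n = 3 each; exact permutation test, two-sided p = 0.4). When single libraries were left out, the sign of the log2 fold change turned for Acsl1 (0.30 with Eldr cKI replicate 1 dropped, 0.53 with control replicate 3 dropped).

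In the carnitine shuttle, Cpt1a is the liver form and Cpt1b the muscle form of carnitine palmitoyltransferase 1, the rate-limiting step of fatty acid entry. Cpt1a was at 9.07, 5.98 and 8.95 FPKM in Eldr cKI, against 4.05, 7.24 and 51.1 FPKM in control. Control replicate 3, the library with the hepatocyte markers, was highest, and the other 5 lay between 4.05 and 9.07 FPKM. The log2 fold change was -0.54 (SE 1.41). Cpt1b was at 0, 5.54 and 0 FPKM in Eldr cKI and 1.86, 2.43 and 0 FPKM in control. It lay below Cpt1a in each library in which both were above 0. Its values were low and it shares sequence with an overlapping gene, so this order is not read as a difference between the isoforms. Cpt2, which reforms acyl-CoA inside the mitochondrion, was listed at 0 in 4 libraries and at 6.44 FPKM in Eldr cKI replicate 3 and 6.52 FPKM in control replicate 2. Slc25a20, the carnitine and acylcarnitine carrier, was at 1.97, 18.7 and 4.68 FPKM in Eldr cKI, against 4.78, 0 and 12.3 FPKM in control. It overlapped between groups, and its log2 fold change of 0.70 (SE 1.45) did not pass. Summed over the 4 genes the level was 20.4 ± 9.58 FPKM in Eldr cKI and 30.1 ± 28.9 FPKM in control (SD, n = 3 each; exact permutation test, two-sided p = 0.9). The sign of the log2 fold change turned without 1 library for Cpt1a (0.46 with control replicate 3 dropped) and Slc25a20 (-0.05 with Eldr cKI replicate 2 dropped, -0.34 with control replicate 2 dropped).

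The acyl-CoA dehydrogenases carry out the first step of each round of beta-oxidation and differ in the chain length they accept. Acadl, for long chains, was the most abundant of the 4 in every library, at 62.4, 154 and 136 FPKM in Eldr cKI, against 27.4, 64.1 and 231 FPKM in control. The controls held both the lowest and the highest value, and the log2 fold change was 0.55 (SE 1.08, limma adjusted p = 0.999). Acadm, for medium chains, was at 4.28, 46.9 and 33.7 FPKM in Eldr cKI, against 16.3, 20.7 and 27.1 FPKM in control. Eldr cKI held the lowest and the highest value, with a log2 fold change of -0.09 (SE 1.33). Acadvl, for very long chains, was at 12.2, 21.3 and 14.97 FPKM in Eldr cKI, against 19.4, 19.1 and 8.12 FPKM in control, with a log2 fold change of 0.11 (SE 1.37). Acads, for short chains, was listed at 0 in the 3 controls and Eldr cKI replicate 2, and above 0 in the other Eldr cKI libraries, with 4.24 FPKM in replicate 1 and 3.83 FPKM in replicate 3. Its limma adjusted p was 0.959. Summed over the 4 genes the level was 165 ± 72.8 FPKM in Eldr cKI and 144 ± 107 FPKM in control (SD, n = 3 each; exact permutation test, two-sided p = 0.9). Dropping 1 library turned the sign of the log2 fold change for Acadl (-0.15 with control replicate 1 dropped), Acadm (0.89 with Eldr cKI replicate 1 dropped, 0.09 with control replicate 3 dropped) and Acadvl (-0.09 with Eldr cKI replicate 2 dropped, -0.27 with control replicate 3 dropped).

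Hadha and Hadhb encode the 2 subunits of the mitochondrial trifunctional protein, and the genes lie head to head on chromosome 5, with 85 bases between their ends in the table. Their promoter windows, 250 bases before to 50 after the start given by RefSeq on GRCm38.p6, share 228 bases and are shown because both subunits are read from this 1 region in opposite directions. Capitals mark the shared bases, which read as reverse complements.
Hadha, chr5:30154931-30155230, minus strand: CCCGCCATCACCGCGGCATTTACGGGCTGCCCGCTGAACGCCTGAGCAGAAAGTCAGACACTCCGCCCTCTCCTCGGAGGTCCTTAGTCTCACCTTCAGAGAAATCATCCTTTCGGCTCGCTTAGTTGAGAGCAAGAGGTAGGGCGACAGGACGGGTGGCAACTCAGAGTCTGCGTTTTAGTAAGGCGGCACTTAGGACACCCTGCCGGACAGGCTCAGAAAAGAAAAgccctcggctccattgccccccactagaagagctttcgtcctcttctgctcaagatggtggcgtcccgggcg
Hadhb, chr5:30155003-30155302, plus strand: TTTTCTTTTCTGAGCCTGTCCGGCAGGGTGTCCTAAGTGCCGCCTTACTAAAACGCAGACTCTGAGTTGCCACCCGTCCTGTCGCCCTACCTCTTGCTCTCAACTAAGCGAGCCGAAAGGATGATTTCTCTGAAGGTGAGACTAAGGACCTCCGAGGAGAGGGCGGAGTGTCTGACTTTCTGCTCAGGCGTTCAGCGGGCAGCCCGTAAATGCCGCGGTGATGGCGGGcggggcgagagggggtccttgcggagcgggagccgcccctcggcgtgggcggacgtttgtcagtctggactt

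Their listed FPKM followed different orders over the libraries, and by the rough depth estimate the lowest values rest on few fragments. In a transcript of 1 kilobase, 1 fragment was worth roughly 9.65 FPKM in Eldr cKI replicate 1. In control replicate 2 it was worth roughly 15.6 FPKM. Hadhb also has nearly identical processed pseudogenes, so neither the orders nor the ratios are read as a difference between the subunits. Hadha was at 1.29, 31.97 and 8.04 FPKM in Eldr cKI, against 2.82, 3.57 and 10.3 FPKM in control. Hadhb was at 4.23, 26.5 and 17.9 FPKM in Eldr cKI, against 6.68, 30.5 and 31.2 FPKM in control. Both were lowest in Eldr cKI replicate 1, but Hadha peaked in Eldr cKI replicate 2 and Hadhb was higher in control replicates 2 and 3. The ratio of Hadha to Hadhb was 0.304, 1.21 and 0.449 in Eldr cKI, against 0.422, 0.117 and 0.330 in control, and the groups overlapped. Log2 fold changes were 0.60 (SE 1.44) for Hadha and -0.51 (SE 1.36) for Hadhb. Hadh, the short-chain hydroxyacyl-CoA dehydrogenase, was listed at 0 in control replicate 2 and peaked at 51.5 FPKM in control replicate 3. Summed over the 7 genes of the later steps the level was 72.2 ± 45.8 FPKM in Eldr cKI and 152 ± 34.96 FPKM in control (SD, n = 3 each; exact permutation test, two-sided p = 0.2). When single libraries were left out, the sign of the log2 fold change turned for Hadha (-0.36 with Eldr cKI replicate 2 dropped) and Hadhb (0.20 with Eldr cKI replicate 1 dropped).

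Among the later steps of beta-oxidation, Acaa2 and Eci1 had the most negative log2 fold changes of the 43. Acaa2, the mitochondrial thiolase that splits off acetyl-CoA (ENSMUSG00000036880.9, chromosome 18, 74779197 to 74806207, plus strand), was at 10.6, 5.79 and 31.1 FPKM in Eldr cKI, against 63.3, 62.96 and 38.97 FPKM in control. All 3 Eldr cKI libraries lay below all 3 controls, the nearest pair being Eldr cKI replicate 3 and control replicate 3. The means were 15.8 ± 13.5 FPKM in Eldr cKI and 55.1 ± 13.9 FPKM in control (SD, n = 3 each). Its log2 fold change was -2.01 (SE 1.30, limma adjusted p = 0.959), and the authors' deposited table gave it a p of 0.0448 and a q of 0.704. Eci1, an enoyl-CoA isomerase needed for unsaturated fatty acids, was at 0, 25.4 and 0 FPKM in Eldr cKI, against 21.8, 59.8 and 37.8 FPKM in control. It was listed at 0 in Eldr cKI replicates 1 and 3, while Eldr cKI replicate 2 lay within the controls. Its log2 fold change was -3.66 (SE 1.41, limma adjusted p = 0.959), and the authors' deposited table gave a p of 0.0874. Echs1 and Decr1, the enoyl-CoA hydratase and the dienoyl-CoA reductase, stayed at or below 11.96 FPKM, with Echs1 listed at 0 in Eldr cKI replicate 1 and Decr1 in control replicate 2.

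**Figure D4:**
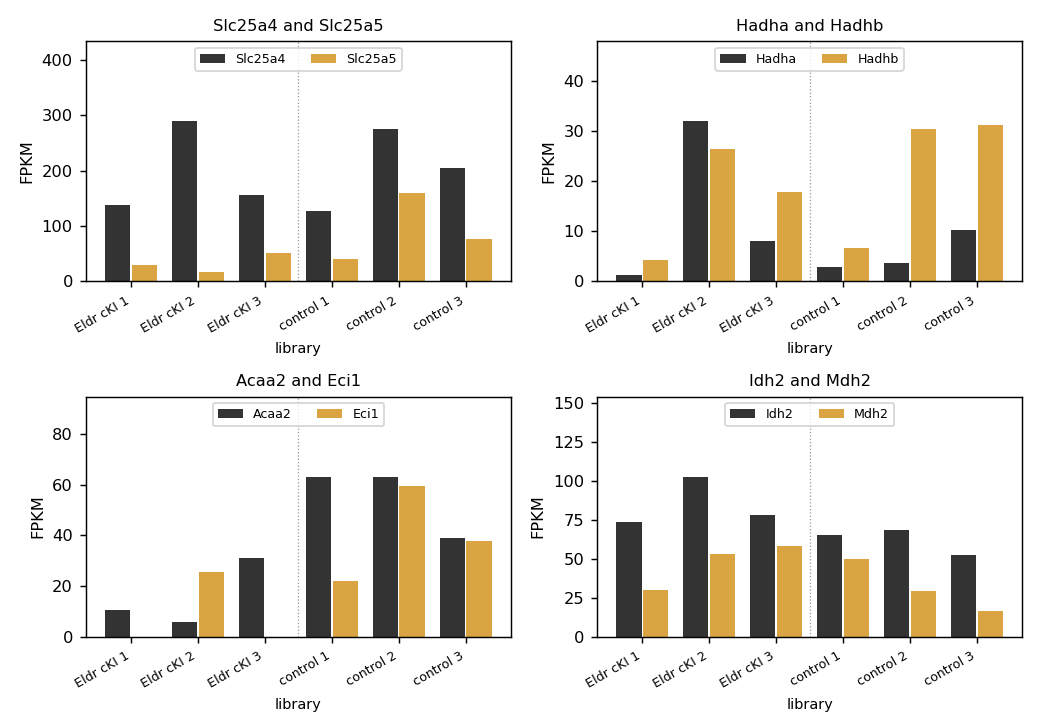
FPKM (bars, axis from 0) of 4 gene pairs in the 3 Eldr cKI libraries, left of the dotted line, and the 3 control libraries, right of it. Slc25a4 exceeds Slc25a5 in all 6 libraries, Hadha exceeds Hadhb only in Eldr cKI replicate 2, Acaa2 is lower in each Eldr cKI library than in each control, and Idh2 varies least of the genes above 0 everywhere.

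The electron transfer flavoproteins pass electrons from the acyl-CoA dehydrogenases to the respiratory chain: Etfa and Etfb form a heterodimer and Etfdh is its oxidoreductase. Etfa was at 23.6, 145 and 22.03 FPKM in Eldr cKI, against 15.2, 0 and 54.9 FPKM in control. It was listed at 0 in control replicate 2 and highest in Eldr cKI replicate 2, and its log2 fold change of 2.17 (SE 1.34) had a limma adjusted p of 0.959. Etfb was at 8.31, 107 and 26.5 FPKM in Eldr cKI, against 40.7, 65.3 and 35.6 FPKM in control. Eldr cKI held its lowest and highest values, with a log2 fold change of -0.63 (SE 1.24). Etfdh was at 1.29, 12.6 and 5.30 FPKM in Eldr cKI and 4.76, 9.35 and 14.6 FPKM in control, with Eldr cKI replicate 1 lowest and a log2 fold change of -0.75 (SE 1.43). Summed over the 3 genes the level was 117 ± 128 FPKM in Eldr cKI and 80.1 ± 22.7 FPKM in control (SD, n = 3 each; exact permutation test, two-sided p = 1). The sign of the log2 fold change turned without 1 library for Etfb (0.22 with Eldr cKI replicate 1 dropped).

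Pyruvate dehydrogenase links glycolysis to the TCA cycle, and Pdk4 is the kinase that shuts it off during fasting and fat oxidation. Pdk4 was at 0, 49.96 and 16.7 FPKM in Eldr cKI, against 23.1, 12.1 and 22.1 FPKM in control. It was listed at 0 in Eldr cKI replicate 1 and highest in Eldr cKI replicate 2, with a log2 fold change of -1.01 (SE 1.38). Pdha1, the catalytic alpha subunit, was at 7.74, 117 and 68.1 FPKM in Eldr cKI, against 17.2, 24.97 and 16.9 FPKM in control. Eldr cKI replicates 2 and 3 lay above all controls and Eldr cKI replicate 1 below them, with a log2 fold change of 1.02 (SE 1.29). Pdhb, its partner subunit, was at 7.23, 18.7 and 18.9 FPKM in Eldr cKI and 16.01, 27.8 and 6.404 FPKM in control, with a log2 fold change of -0.06 (SE 1.37). Dld and Dlat, the other catalytic components, were listed at 0 in Eldr cKI replicate 1, and Dlat in Eldr cKI replicate 2 and control replicate 3 as well. Summed over the 5 genes the level was 122 ± 97.99 FPKM in Eldr cKI and 78.6 ± 17.7 FPKM in control (SD, n = 3 each; exact permutation test, two-sided p = 0.5). Dropping 1 library turned the sign of the log2 fold change for Pdk4 (0.63 with Eldr cKI replicate 1 dropped) and Pdhb (0.36 with Eldr cKI replicate 1 dropped, 0.02 with control replicate 1 dropped, 0.40 with control replicate 2 dropped).

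In the TCA cycle Idh2, the NADP-dependent isocitrate dehydrogenase of mitochondria (ENSMUSG00000030541.16, chromosome 7, 80094846 to 80115392, minus strand), had the highest mean of the cycle and the smallest range of the 26 genes above 0 everywhere. Idh2 was at 73.6, 103 and 77.8 FPKM in Eldr cKI, against 65.1, 68.5 and 52.6 FPKM in control. Each Eldr cKI library lay above each control, and the highest library was 1.95 times the lowest. The means were 84.7 ± 15.7 FPKM in Eldr cKI and 62.1 ± 8.37 FPKM in control (SD, n = 3 each). Its log2 fold change was 0.44 (SE 1.13, limma adjusted p = 0.999), the SE from its own values was 0.19, and the authors' deposited table gave a p of 0.0793 and a q of 0.704. Its promoter window (RefSeq, GRCm38.p6) is shown as that of the gene with the smallest spread, with CCAAT or AGGTCA on either strand in capitals, here 1 CCAAT.
Idh2, chr7:80115301-80115600, minus strand: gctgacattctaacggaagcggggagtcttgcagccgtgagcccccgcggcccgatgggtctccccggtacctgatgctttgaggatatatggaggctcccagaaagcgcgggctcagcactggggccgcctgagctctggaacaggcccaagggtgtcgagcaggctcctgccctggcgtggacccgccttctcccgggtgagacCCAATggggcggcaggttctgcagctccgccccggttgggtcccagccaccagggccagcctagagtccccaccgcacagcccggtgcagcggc

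Other TCA cycle genes overlapped between groups. Ogdh, the rate-controlling subunit of 2-oxoglutarate dehydrogenase, was at 12.4, 95.1 and 63.8 FPKM in Eldr cKI, against 33.4, 53.4 and 36.4 FPKM in control, with a log2 fold change of 0.08 (SE 1.22). Cs, citrate synthase, was at 11.1, 46.5 and 43.7 FPKM in Eldr cKI, against 19.6, 19.4 and 2.70 FPKM in control. Eldr cKI replicates 2 and 3 were the highest libraries and control replicate 3 the lowest, with a log2 fold change of 1.35 (SE 1.35). Mdh2, the mitochondrial malate dehydrogenase, was at 30.02, 52.97 and 58.1 FPKM in Eldr cKI, against 49.9, 29.5 and 16.4 FPKM in control, with a log2 fold change of 0.63 (SE 1.25). Dlst, the succinyltransferase subunit of the 2-oxoglutarate complex, was at 6.41, 20.97 and 36.2 FPKM in Eldr cKI and 6.79, 9.05 and 23.8 FPKM in control, and Fh1, fumarase, at 2.85, 19.1 and 8.79 FPKM in Eldr cKI and 16.4, 6.66 and 25.4 FPKM in control. Their log2 fold changes were 0.55 (SE 1.37) and -0.74 (SE 1.40). Suclg1, a subunit of succinyl-CoA ligase, was at 0, 13.5 and 9.05 FPKM in Eldr cKI, against 13.1, 20.3 and 14.1 FPKM in control. Eldr cKI replicate 1 was listed at 0 and the groups overlapped, with a log2 fold change of -1.66 (SE 1.42). The 3 subunits of the NAD-dependent isocitrate dehydrogenase did not share a pattern: Idh3b was listed at 0 in Eldr cKI replicate 1, Idh3g in control replicate 3 and Idh3a in no library. Idh3a was at 1.89, 16.1 and 13.2 FPKM in Eldr cKI and 10.5, 30.2 and 2.34 FPKM in control, with a log2 fold change of -0.25 (SE 1.42). Summed over the 11 genes the level was 321 ± 155 FPKM in Eldr cKI and 275 ± 80.8 FPKM in control (SD, n = 3 each; exact permutation test, two-sided p = 0.7). When single libraries were left out, the sign of the log2 fold change turned for Idh3a (0.56 with Eldr cKI replicate 1 dropped, 0.52 with control replicate 2 dropped) and Ogdh (-0.49 with Eldr cKI replicate 2 dropped, -0.20 with Eldr cKI replicate 3 dropped, -0.05 with control replicate 1 dropped).

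Slc25a4 and Slc25a5 encode the adenine nucleotide translocases that exchange ATP for ADP across the inner membrane. Slc25a4 is the form of heart and skeletal muscle, and Slc25a5 the form of most dividing cells. Their promoter windows (RefSeq, GRCm38.p6) are shown because the muscle form had the higher listed FPKM in every library. Capitals mark CCAAT or AGGTCA on either strand, of which only CCAAT occurs. Slc25a4 has 2 and Slc25a5 0.
Slc25a4, chr8:46211013-46211312, minus strand: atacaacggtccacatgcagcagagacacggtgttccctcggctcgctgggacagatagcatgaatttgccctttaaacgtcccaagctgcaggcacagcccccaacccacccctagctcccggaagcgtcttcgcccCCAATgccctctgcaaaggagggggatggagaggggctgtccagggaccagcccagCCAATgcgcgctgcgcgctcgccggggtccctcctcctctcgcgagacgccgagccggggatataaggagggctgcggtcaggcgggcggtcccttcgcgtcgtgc
Slc25a5, chrX:36795347-36795646, plus strand: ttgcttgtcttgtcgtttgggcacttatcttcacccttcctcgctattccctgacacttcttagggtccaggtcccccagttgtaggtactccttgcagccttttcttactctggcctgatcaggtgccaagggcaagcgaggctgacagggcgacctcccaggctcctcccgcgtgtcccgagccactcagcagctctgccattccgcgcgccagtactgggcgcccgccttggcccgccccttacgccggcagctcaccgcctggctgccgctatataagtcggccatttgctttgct

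Slc25a4 was at 137, 289 and 155 FPKM in Eldr cKI, against 128, 275 and 205 FPKM in control. It varied 2.26-fold between the lowest and highest library and the groups overlapped, with a log2 fold change of -0.08 (SE 0.94, limma adjusted p = 0.999). Slc25a5 was at 29.8, 17.3 and 51.2 FPKM in Eldr cKI, against 39.4, 159 and 75.8 FPKM in control. Its lowest library was Eldr cKI replicate 2 and its highest control replicate 2, with a log2 fold change of -1.36 (SE 1.20, limma adjusted p = 0.959). Slc25a4 exceeded Slc25a5 in each library, by a ratio of 4.60, 16.7 and 3.03 in Eldr cKI, against 3.24, 1.73 and 2.70 in control. Slc25a5 has nearly identical processed pseudogenes and Slc25a4 has none, so the ratio is not read as a difference between the forms. The widest ratio was in Eldr cKI replicate 2, the library with the most cardiomyocyte marker RNA, at 7379 FPKM. The narrowest was in control replicate 2, which came next in that RNA, at 3609.7 FPKM. Whether the ratio goes with cardiomyocyte RNA was not tested, and the groups overlapped. Slc25a3, the phosphate carrier, was at 20.6, 24.3 and 32.5 FPKM in Eldr cKI, against 32.3, 39.4 and 50.7 FPKM in control. Control replicate 1 lay just below Eldr cKI replicate 3, so the groups overlapped, and its log2 fold change was -0.64 (SE 1.27). The sum of the 3 carriers was 252 ± 72.5 FPKM in Eldr cKI and 335 ± 137 FPKM in control (SD, n = 3 each; exact permutation test, two-sided p = 0.4). The difference of -82.4 FPKM became 100.1 FPKM when the predicted genes were left out and libraries rescaled. The sign of the log2 fold change turned without 1 library for Slc25a4 (0.13 with Eldr cKI replicate 1 dropped, 0.04 with Eldr cKI replicate 3 dropped, 0.18 with control replicate 2 dropped).

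The malate-aspartate shuttle moves reducing equivalents into mitochondria through malate dehydrogenases and aspartate aminotransferases. Mdh1, the cytosolic malate dehydrogenase, was at 35.7, 56.8 and 51.5 FPKM in Eldr cKI, against 67.1, 118 and 24.02 FPKM in control, with a log2 fold change of -0.29 (SE 1.18). The controls held its lowest and highest values. The ratio of Mdh1 to mitochondrial Mdh2 was 1.19, 1.07 and 0.886 in Eldr cKI, against 1.34, 3.99 and 1.47 in control, lower in each Eldr cKI library than in each control. This ratio was picked out of 8 after its values were seen and was not tested. Of the 8, Cpt1a to Cpt1b, Etfa to Etfb and Got1 to Got2 were not compared between groups because of values at 0. Got1, the cytosolic aminotransferase, was at 0, 84.3 and 36.1 FPKM in Eldr cKI, against 36.6, 6.14 and 4.67 FPKM in control. It was listed at 0 in Eldr cKI replicate 1 and highest in Eldr cKI replicate 2, and its log2 fold change of 0.35 (SE 1.39) did not pass. Got2, the mitochondrial form, was at 9.12, 55.02 and 27.3 FPKM in Eldr cKI, against 21.7, 12.2 and 30.9 FPKM in control, with a log2 fold change of 0.25 (SE 1.32). Summed over Mdh1, Got1 and Got2 the level was 119 ± 75.7 FPKM in Eldr cKI and 107 ± 41.4 FPKM in control (SD, n = 3 each; exact permutation test, two-sided p = 1). Dropping 1 library turned the sign of the log2 fold change for Mdh1 (0.22 with control replicate 2 dropped), Got1 (-0.92 with Eldr cKI replicate 2 dropped, -0.32 with Eldr cKI replicate 3 dropped, -0.16 with control replicate 3 dropped) and Got2 (-0.33 with Eldr cKI replicate 2 dropped, -0.09 with control replicate 2 dropped).

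Of 73 other genes of the pathway, listed apart from the 43, 64 had a row and 62 entered the fit. None passed in either direction (limma, Benjamini-Hochberg). Of the 62, 26 were fitted higher (41.9%) and 36 lower, against 48.9% higher over all genes. The median log2 fold change was -0.25, against -0.04 over all genes. Groups did not overlap for 2 of them, Acsl6 and Esrra, both lower, a share of the 62 no larger than the 3.78% of all genes. Acsl6 was at 0, 0 and 0.419 FPKM in Eldr cKI and 3.85, 15.2 and 0.869 FPKM in control, and Acot2, a mitochondrial acyl-CoA thioesterase, was listed at 0 in Eldr cKI and control replicate 2 and at 12.00 and 4.05 FPKM in control replicates 1 and 3.

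Among the regulators, Ppara, the nuclear receptor that drives fat oxidation genes in liver and heart, was above 0 in Eldr cKI replicate 2 alone, at 3.77 FPKM. Ppargc1a, the coactivator of mitochondrial biogenesis, was at 0, 11.1 and 18.3 FPKM in Eldr cKI and 5.26, 2.62 and 0 FPKM in control. Esrra, an orphan receptor that binds promoters of TCA cycle and fat oxidation genes, was at 3.81, 0 and 4.62 FPKM in Eldr cKI and 8.46, 6.14 and 4.62 FPKM in control, and its groups were parted only by less than the last digit shown. Outside the 43, the TCA cycle gene Sdha, a subunit of succinate dehydrogenase, was at 6.98, 53.4 and 49.95 FPKM in Eldr cKI and 28.6, 92.9 and 51.2 FPKM in control. Its partner Sdhb was at 17.02, 50.2 and 4.19 FPKM in Eldr cKI and 30.3, 0 and 58.6 FPKM in control. Their values overlapped between groups.

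Promoter windows of 300 bases were found by symbol for 39 of the 43 genes. The letters TNAAGGTCA, the site known for Esrra, read on both strands, were in 0 of the 39 genes, against 1.43% of 27025 genes. The shorter nuclear receptor element AGGTCA, which lies inside TNAAGGTCA, was in 11 of 39, or 28.2%, against 18.1%. CCAAT was in 18 of 39, or 46.2%, against 41.1%. A gene counted if any of its windows matched, and some genes, such as Ogdh, had several windows. The 27025 were all genes with a window, whatever their level here, so the shares are not strictly like for like. No match says only that these letters are not in this window.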

How the data were processed

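RNA from 6 samples labelled chondrocytes was sequenced, 3 Eldr cKI and 3 control. Per the labels' protocols, total RNA was selected by poly(A) or depleted of ribosomal RNA, made into stranded libraries and run on an Illumina HiSeq. The submitters' processing notes name cutadapt, HISAT2 2.0.5 and StringTie, and the build hg19, although the identifiers and positions in the table are those of mouse GRCm38 (39 of the 43 genes have the exact span of GENCODE M21). The authors deposited FPKM for each library and group columns holding the mean log2(FPKM + 1). Their deposited table also gives a log2 fold change, Eldr cKI minus control, the same as a linear ratio, and p-values with q-values, made by a test that the sources used here do not name. The table held 0 per-sample columns other than those of these 6 libraries.

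Rows with a mean FPKM of at least 0.5 (10772 of 11955) were fitted as log2(FPKM + 1) with limma 3.58.1 in R 4.3.3, with group as the only term, a mean-variance trend and Benjamini-Hochberg adjustment over all rows fitted. A fold change on this scale understates the change of low genes. Sums were compared by exact permutation. The alternatives were another pseudocount, filter, scaling, variance model, library weights, a replicate block and leaving out each library; leaving out Eldr cKI replicate 1 together with control replicate 3 was chosen after seeing the data. Copies were sought with BLAST+ 2.17.0, and figures drawn with matplotlib 3.10.9. Promoter sequences are from RefSeq.

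The 43 genes, the other gene lists and the markers were chosen with earlier results of these data known. Values in every library are given for the 2 most abundant genes of each role, for genes above 0 in every library, for genes whose groups do not overlap and for the 6 with the smallest unadjusted p.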

Additional observations from a re-analysis of the deposited data

How the results depend on the processing

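The 16 alternatives, 1 of which leaves out Eldr cKI replicate 1 and control replicate 3 together, each called 0 of the 43 genes, with a smallest adjusted p among the 33 named genes of 0.465, and over these 16, 13 of the 33 kept their sign throughout while 20 changed it at least once, Etfdh and Fh1 only in the fit without both libraries. Over all rows, 3 genes passed as reported, against 8 with a pseudocount of 0.1, 1 with a minimum mean FPKM of 5, 1 with quantile normalization, 5 with the replicate block, 0 with no mean-variance trend and 17 with array quality weights. Leaving out libraries gave 0 to 12, with 0 without Eldr cKI replicate 1 or control replicate 3 and 12 without control replicate 1. Fitted values were higher for 19 of the 43 as reported, for 29 with the predicted genes left out, and for 13 to 33 when libraries were left out. Their median of -0.08 lay between -0.40 and 0.48 when libraries were left out. With a pseudocount of 0.1, the log2 fold change changed sign to -0.61 for Got1. With quantile normalization, the log2 fold change changed sign to 0.22 for Acadm, 0.044 for Pdhb and 0.22 for Slc25a4. With the predicted genes left out, the log2 fold change changed sign to 0.40 for Acsl1, 0.23 for Cpt1a, 0.64 for Acadm, 0.23 for Hadhb, 0.13 for Etfb, 0.66 for Pdhb, 0.32 for Idh3a, 0.49 for Mdh1, 0.73 for Slc25a4 and 0.14 for Slc25a3. With the predicted and mitochondrial genes left out, the log2 fold change changed sign to 0.13 for Acadm, 0.18 for Pdhb and 0.19 for Slc25a4. With array quality weights, the log2 fold change changed sign to 0.24 for Acsl1, 0.45 for Acadm, 0.11 for Etfb, 0.16 for Pdk4, 0.037 for Pdhb, 0.0019 for Idh3a and 0.11 for Slc25a4. When libraries were left out, the log2 fold changes that changed sign ran from -0.96 to 1.19 for Acsl1, -0.70 to 1.07 for Acadm, -1.19 to 0.55 for Hadhb, -1.54 to 0.22 for Etfb, -2.21 to 0.75 for Pdk4, -0.58 to 0.40 for Pdhb, -1.09 to 0.56 for Idh3a, -0.40 to 0.18 for Slc25a4, -0.34 to 2.14 for Slc25a20, -0.27 to 0.31 for Acadvl, -0.36 to 2.05 for Hadha, -0.49 to 0.94 for Ogdh, -0.92 to 2.29 for Got1, -0.33 to 1.20 for Got2, -0.15 to 1.76 for Acadl, -0.90 to 0.22 for Mdh1, -1.22 to 0.46 for Cpt1a, -1.36 to 0.26 for Etfdh and -1.31 to 0.28 for Fh1. The summed FPKM difference of 279.8 was -4.60 without Fabp3, and -0.128 as a mean of log2(FPKM + 1). The carnitine shuttle sum difference became 8.15 with the predicted genes left out. The carriers of nucleotides and phosphate sum difference became 100.1 with the predicted genes left out. When libraries were left out, the sum differences that changed sign ran from -297 to 799.9 FPKM for all 43 genes, -19.3 to 11.7 FPKM for carnitine shuttle, -20.2 to 122 FPKM for acyl-CoA dehydrogenases, -36.6 to 91.5 FPKM for electron transfer flavoproteins, -16.3 to 133 FPKM for TCA cycle and -27.3 to 48.4 FPKM for malate-aspartate shuttle. The cause of these changes was not tested. Libraries with the same replicate number did not deviate together (r of deviations from the group means -0.17, 0.03, -0.15). No pairing by number was seen, but 3 libraries a group are too few to settle it. The replicate block called 0 of the 43, as did the fit without it. With about 64307 to 239685 estimated fragments a library, a value of 0 is not evidence of absence.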

Other observations

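The largest hepatocyte signal was in 1 control library, and Ehhadh, a gene of fat metabolism abundant in liver, peaked there. Ehhadh, a peroxisomal bifunctional enzyme, was at 0, 5.46 and 0 FPKM in Eldr cKI and 0, 0 and 70.7 FPKM in control. It was far higher in control replicate 3 than in any other library. Ehhadh is 1 of the 64 other genes of the pathway that had a row. Whether its RNA came from hepatocytes was not tested.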
